A study of Mus musculus with 18 samples.

Results

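Mouse liver 48 h after partial hepatectomy was compared with sham-operated liver by mRNA sequencing. The comparison took the 2 libraries labelled 48 h and the 2 sham libraries, 4 of the 18 libraries of a regeneration course, and used every gene whose counts allowed a test: 8026 of 17180 listed genes with both sham libraries, or 12199 with 1 of them. All mice were C57BL/6. The 48 h mice had lost 2/3 of the liver and the sham mice had an operation without resection. Each library held RNA from the livers of 3 pooled mice, so the 2 libraries of a group are 2 pools. The labels give the sham group no time after surgery, and they give neither age nor sex for the groups. The 24 h and 72 h groups, 2 pools each of hepatectomized mice, served as neighbouring times.

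Hepatocytes of the adult liver rest outside the cell cycle and carry the organ's metabolism and its secretion of plasma proteins. After resection the remaining hepatocytes enter the cycle together: cyclin D1 takes them through G1, the MCM helicase and the replication fork copy the genome, and cyclin B with CDK1 drives mitosis. Sinusoidal endothelium, stellate cells, Kupffer cells and bile duct cells divide later or support the process.

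Totals ran from 7.78 to 9.16 M reads (M for mega) over the 18 libraries, with 7.78 and 8.01 M in the sham pools and 8.80 and 9.06 M at 48 h. The table of sham pool 2 ended at 52 reads, so a gene unlisted there had fewer than 52 reads, or under 6.55 CPM, and its value is unknown, not 0. CPM here means reads in each 1 M of the library total after that total was multiplied by the library's TMM factor. The factors were 1.03 and 0.991 in the sham pools and 1.18 and 1.12 at 48 h. The levels printed are thus on the scale of the test with both sham pools. Tests without sham pool 2 used factors from 16 libraries, with 1.18 in place of 1.14 for 72 h pool 2. Genes listed in both sham tables were therefore tested with 2 pools against 2. Genes scarce in sham were tested in the complete tables, with sham pool 1 alone, whose spread was taken to equal that of the other groups. Both used the quasi-likelihood test of edgeR, with p-values adjusted by the Benjamini-Hochberg method and a threshold of 0.05, and ± marks the standard error of a log2 difference. What the p-values weigh is thus the spread between pools, each of 3 mice. Between the 2 pools of a group, the standard deviation of the log2 difference over the 8026 genes was 0.275 in sham and 0.287 at 48 h, against 0.440 at 24 h. In whole liver, a change in the number of cells of a type and a change in RNA per cell cannot be told apart.

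With both sham pools, 2497 of 8026 genes differed at 48 h (31.1%), of which 1136 were higher (14.2%) and 1361 lower (17%), and the median log2 difference of all genes was -0.05. Of the called genes, 2496 had both 48 h pools on the same side of both sham pools. Over all 8026 genes the 48 h pools lay above both sham pools in 33.8% and below both in 40.4%. A difference of more than 2-fold was found for 251 higher and 437 lower genes, and one of more than 8-fold for 8 and 24. A gene entered this test only with at least 52 reads in sham pool 2. Genes scarce in sham were thus left out, and these splits cannot be read apart from that filter. Scaling by library totals alone, without TMM factors, moved the median by 0.18 and turned the split to 1935 higher and 756 lower genes, and the deposited RPKM on a log2 scale with 1 added gave 1964 and 772. Of 12199 genes in the complete tables, 1820 differed (14.9%), 935 higher (7.66%) and 885 lower (7.25%), with a median of 0.01. There the large changes were mostly rises: 173 genes were more than 8-fold higher and 34 more than 8-fold lower. Of the 935 higher genes 390 were unlisted in sham pool 2, and in 264 of those both 48 h pools lay above the 6.55 CPM that sham pool 2 could hold. In the complete tables a gene could pass the filter on reads through the 48 h pools alone, but not through sham pool 1 alone. That filter can favour rises. Without it, more genes were called lower than higher there. The counts of each gene list are to be read against the shares of all genes given above. The lists were chosen with earlier results of these data known, so a higher share in a list is a description and no test. Library totals alone gave 1412 higher and 493 lower genes in the complete tables, and RPKM gave 1597 and 497.

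Genes of mitosis rose at 48 h. Of 27 mitotic kinases, cyclins A and B and subunits of the anaphase-promoting complex, all were tested in the complete tables and 23 were called higher and 0 lower, with a median log2 difference of 3.91. Of 33 genes of the spindle and of cytokinesis 29 were higher and 0 lower (median 4.54), and of 39 tested genes of the kinetochore and of chromosome structure 32 were higher and 0 lower (median 3.27). Most of these genes were unlisted in sham pool 2: 21 of the 23, 28 of the 29 and 30 of the 32, and of these 21, 25 and 25 lay above the bound of sham pool 2 in both 48 h pools. Without 48 h pool 2 the kinetochore count was 20.

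**Figure D1:**
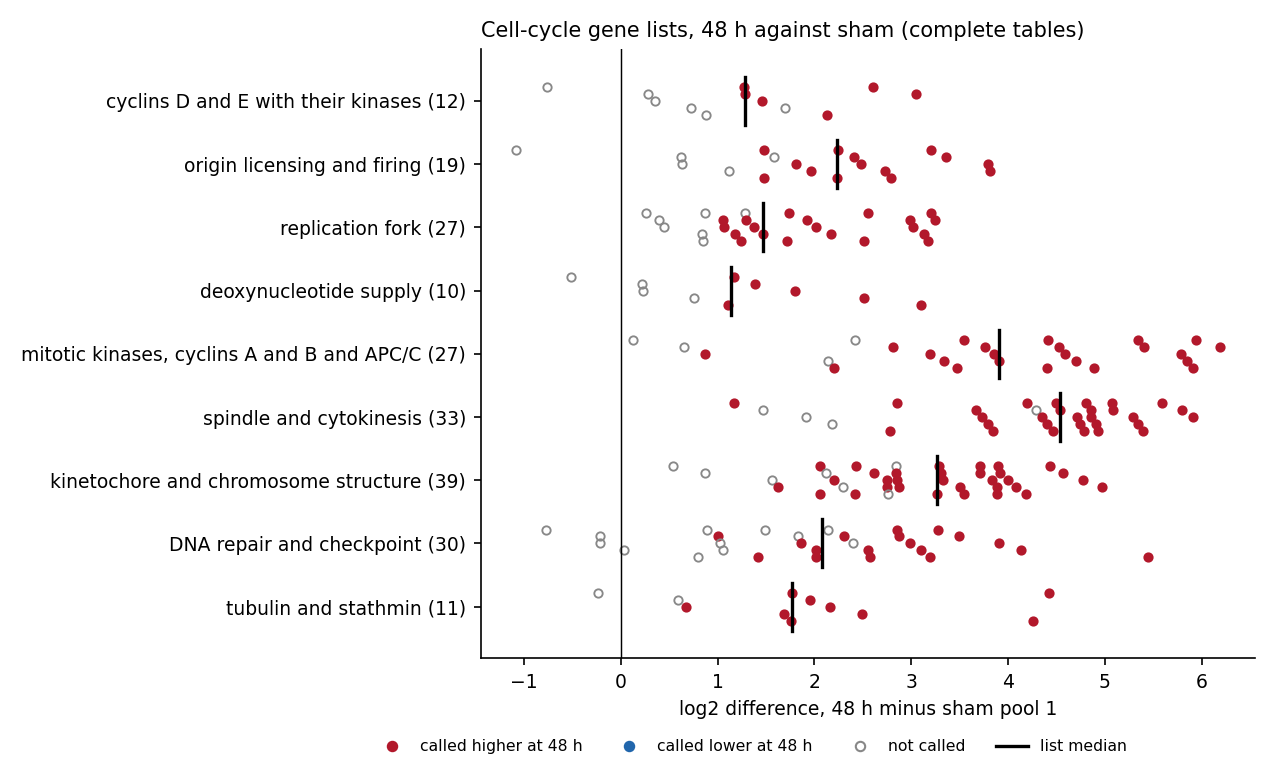
Log2 difference between 48 h and sham pool 1 (x axis) for the members of 9 cell-cycle gene lists (y axis, number tested in brackets). Each point is 1 gene, filled where called (edgeR, adjusted p under 0.05) and open where not, and the bar is the list's median. The spindle list sits furthest to the right, at a median of 4.54, and the fork list lower, at 1.47.

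Cyclin B with CDK1 starts mitosis. Ccnb1, encoding cyclin B1 (gene 268697, chr13:100778739-100786486 in GRCm38), had 2.12 CPM in sham pool 1 and 74.8 and 99.05 CPM in the 48 h pools, a log2 difference of 5.34 ± 0.67, adjusted p = 0.000705. Ccnb2, the gene of cyclin B2, went from 1.25 to 61.8 and 78.5 CPM (5.79 ± 0.81, adjusted p = 0.00108). Both genes were unlisted in sham pool 2 and lay far above its bound in both 48 h pools. Their kinase Cdk1 had 2.497 CPM in sham pool 1 and 71.9 and 77.03 CPM at 48 h (4.88 ± 0.54, adjusted p = 0.000672). Ccna2, encoding cyclin A2 of S and G2 phase, had 3.496 and then 84.9 and 77.7 CPM (4.53 ± 0.61, adjusted p = 0.000887); Exosc9, on the opposite strand, shares 12.5% of its exons. The phosphatase gene Cdc25c, which activates CDK1, had 1 read in sham pool 1 and 106 and 102 reads at 48 h, a ratio of 81.4 (95% counting interval 14.4 to 3229).

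The kinases that act beside CDK1 also rose. Plk1, encoding polo-like kinase 1, had 1.87 CPM in sham pool 1 and 101 and 117 CPM at 48 h (5.85 ± 0.69, adjusted p = 0.000705). Aurka and Aurkb, the Aurora kinases of the spindle pole and of the chromosomal passenger complex, differed by 4.41 and 4.70 on the log2 scale, with 26.1 and 26.8 CPM of Aurkb at 48 h against 0.999. Birc5 (survivin), a partner of Aurora B, had 2.12 and then 61.2 and 56.6 CPM (4.78 ± 0.67, adjusted p = 0.00108). Genes that end mitosis also rose. Cdc20, the activator of the anaphase-promoting complex, had 2.87 CPM in sham pool 1 and 179.8 and 176 CPM at 48 h (5.94 ± 0.86, adjusted p = 0.00121). Ube2c and Ube2s, the ubiquitin-conjugating enzymes of that complex, differed by 5.40 in the complete tables and by 2.93 with both sham pools. Tnnc2, on the opposite strand, shares 22.8% of the exons of Ube2c. Ube2s could be read in every library, with 21.97 and 18.5 CPM in the sham pools and 134 and 175 CPM at 48 h, and its groups did not overlap (adjusted p = 1.55e-05). Cdca3, an adaptor for the degradation of a mitotic inhibitor, had 2.996 and then 139.5 and 164 CPM (log2 difference 5.65). Cdkn3, a phosphatase that acts on CDK1, had 2 reads in sham pool 1 and 277 and 348 reads at 48 h, a ratio of 122 (95% counting interval 33.7 to 1012).

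Spindle genes were low in sham and high in both 48 h pools. Prc1, which bundles the microtubules of the central spindle, had 1.498 CPM in sham pool 1 and 84.2 and 98.2 CPM at 48 h (5.91 ± 0.72, adjusted p = 0.000705). Tpx2, an activator of Aurora A, had 2.12 and then 98.6 and 108 CPM (log2 difference 5.59). Dlgap5, another spindle protein gene, differed by 5.47, and the kinesin gene Kif18b had 3 reads in sham pool 1 and 229 and 215 reads at 48 h, a ratio of 57.9 (95% counting interval 19.7 to 282). Kif20a and Racgap1, which act in cytokinesis, differed by 5.07 and 4.85. At the chromosomes, Top2a, the topoisomerase of chromosome condensation, had 4.99 CPM in sham pool 1 and 84.2 and 99.05 CPM at 48 h (4.19 ± 0.53, adjusted p = 0.000705). Mki67, the gene of the proliferation marker Ki-67, had 7.12 and then 105 and 138 CPM (4.08 ± 0.75, adjusted p = 0.00429). Cenpa, the centromeric histone H3, differed by 3.89 and Incenp, the scaffold of the passenger complex, by 3.91. Spc24, a subunit of the outer kinetochore, was one of 3 genes of its list with both sham pools, at 10.5 and 8.32 CPM against 47.5 and 40.5 CPM (2.23 ± 0.26, adjusted p = 0.00013). Not every gene of the process moved past the threshold. Pttg1 (securin) had 23.7 and 22.6 CPM in sham and 26.3 and 25.8 CPM at 48 h, a difference of 0.17 ± 0.14, adjusted p = 0.369.

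The start regions of 6 of these genes are printed because the lists differ in the short motifs they hold, and the genes were picked after their values were seen. Each is RefSeq sequence of build GRCm38.p6 on the gene's strand, from 150 bases before to 30 bases after the annotated start. Capitals mark matches on either strand to the CCAAT box (CCAAT), to the cell cycle homology region or CHR (TTTGAA or TTCGAA), and to an E2F site (TTCCCGC or TTCGCGC or TTGCCGC or TTGGCGC). The first 4 genes act in mitosis and the last 2, Mcm6 of the replicative helicase and Rrm1 of ribonucleotide reductase, in S phase. They lie at chr4:118437314-118437493 (minus strand, Cdc20), chr9:70421525-70421704 (minus, Ccnb2), chr7:80294301-80294480 (plus, Prc1), chr10:69352883-69353062 (minus, Cdk1), chr1:128359676-128359855 (minus, Mcm6) and chr7:102441545-102441724 (plus, Rrm1).
Cdc20: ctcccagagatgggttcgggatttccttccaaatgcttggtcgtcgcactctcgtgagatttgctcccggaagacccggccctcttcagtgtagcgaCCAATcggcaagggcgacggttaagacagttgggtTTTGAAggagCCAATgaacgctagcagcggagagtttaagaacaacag
Ccnb2: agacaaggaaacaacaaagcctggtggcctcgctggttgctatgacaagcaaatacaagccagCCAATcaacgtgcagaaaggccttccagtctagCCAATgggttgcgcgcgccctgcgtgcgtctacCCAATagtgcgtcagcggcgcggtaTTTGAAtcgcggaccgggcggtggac
Prc1: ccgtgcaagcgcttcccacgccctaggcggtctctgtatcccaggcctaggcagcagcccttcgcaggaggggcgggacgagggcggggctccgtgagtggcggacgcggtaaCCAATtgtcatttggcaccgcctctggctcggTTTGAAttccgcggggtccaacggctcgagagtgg
Cdk1: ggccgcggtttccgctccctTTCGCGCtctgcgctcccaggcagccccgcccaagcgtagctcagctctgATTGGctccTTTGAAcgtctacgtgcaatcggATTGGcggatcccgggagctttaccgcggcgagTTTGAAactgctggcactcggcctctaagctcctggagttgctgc
Mcm6: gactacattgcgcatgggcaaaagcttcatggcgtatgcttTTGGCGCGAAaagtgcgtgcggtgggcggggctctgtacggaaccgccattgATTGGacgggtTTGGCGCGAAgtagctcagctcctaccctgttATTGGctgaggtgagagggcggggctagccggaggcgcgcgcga
Rrm1: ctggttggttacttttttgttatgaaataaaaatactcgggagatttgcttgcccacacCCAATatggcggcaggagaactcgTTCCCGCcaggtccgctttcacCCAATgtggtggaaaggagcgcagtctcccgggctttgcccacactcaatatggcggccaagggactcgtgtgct

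The Cdc20, Ccnb2 and Prc1 windows hold 2, 3 and 1 CCAAT boxes and 1 CHR each, with 0 matches to the E2F letters. Cdk1 holds 2 CCAAT boxes, 2 CHR matches and 1 E2F match. Mcm6 and Rrm1 hold 0 CHR matches and 4 and 1 E2F matches, the 4 of Mcm6 being 2 pairs that overlap on opposite strands. Over 27025 RefSeq genes, a window of 300 bases (250 before to 50 after the start) held a CCAAT box in 37.9%, a CHR in 19.4%, an E2F match in 9.69% and a CCAAT box together with a CHR in 7.70%. A CHR was found in 24 of 29 spindle windows (82.8%), 14 of 21 of the mitotic kinase list (66.7%) and 19 of 34 of the kinetochore list (55.9%), in 5 of 14 of the origin list (35.7%) and in 3 of 24 of the replication fork list (12.5%). Lists that held many lower genes had it too, with 10 of 21 windows of UGT, SULT and FMO genes (47.6%) and 12 of 28 of the P450 list (42.9%). An E2F match was found in 14 of 24 fork windows (58.3%) and 8 of 14 origin windows (57.1%), against 13 of 34 kinetochore windows (38.2%), 6 of 29 spindle windows (20.7%) and 3 of 21 windows of the mitotic kinase list (14.3%). These shares describe letters in a window and no binding was measured.

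Genes of DNA replication had smaller median differences. Of 21 genes of origin licensing and firing 19 were tested in the complete tables, and 14 were higher and 0 lower (median 2.23). Of 27 tested replication fork genes 20 were higher and 0 lower (median 1.47), and of 10 genes of deoxynucleotide supply 6 were higher and 0 lower (median 1.14). Without 48 h pool 1 these counts were 9, 11 and 3. Unlisted in sham pool 2 were 12 of the 14, 16 of the 20 and 2 of the 6, and 8, 15 and 2 of these lay above its bound in both 48 h pools. Mcm6 had 11.98 and 9.32 CPM in the sham pools and 65.9 and 48.4 CPM at 48 h (2.42 ± 0.30, adjusted p = 0.00018). Mcm7, a second helicase subunit, had 17.98 and 15.6 and then 69.7 and 71.4 CPM (2.07 ± 0.26, adjusted p = 0.000231), and for both genes the 48 h pools lay above both sham pools. In the complete tables the other subunits Mcm2, Mcm3 and Mcm5 differed by 2.23, 2.49 and 3.20, with 46.2 and 31.6 CPM of Mcm2 at 48 h against 8.24. Cdc6, Cdt1 and Cdc45, which load and start the helicase, differed by 3.80, 2.41 and 2.73; Cdc6, unlisted in sham pool 2, did not lie above its bound in both 48 h pools. Mcm10, a replication factor that joins the helicase at firing, went the other way: 42.9 and 59.2 CPM in sham and 21.2 and 19.6 CPM at 48 h (-1.33 ± 0.45, adjusted p = 0.0416). With 1 library left out, the call ended for Cdc6 (3.32, adjusted p = 0.0739 without 48 h pool 1) and Mcm10 (-1.08, adjusted p = 0.18 without sham pool 2). Library totals alone ended the call of Mcm10 (adjusted p = 0.0712).

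At the fork, all 6 genes listed in both sham tables were higher. Pcna, the sliding clamp, had 25.5 and 26.7 CPM in the sham pools and 59.5 and 47.99 CPM at 48 h (1.04 ± 0.21, adjusted p = 0.00312). Rpa1, which coats single-stranded DNA, had 33.1 and 33.4 and then 89.6 and 73.7 CPM (1.30 ± 0.18, adjusted p = 0.00033), and Dnmt1, the maintenance methyltransferase, differed by 1.64. The ligase gene Lig1 and its chromatin partner Uhrf1 differed by 3.02 and 3.24 in the complete tables. Of the ribonucleotide reductase subunits, Rrm1 had 13.5 and 13.4 CPM in sham and 80.1 and 74.95 CPM at 48 h (2.53 ± 0.25, adjusted p = 6.33e-05) and Rrm2 had 9.49 and 8.44 and then 93.1 and 70.5 CPM (3.19 ± 0.43, adjusted p = 0.000351). Tyms, the thymidylate synthase, had 6.49 CPM in sham pool 1 and 24.4 and 21.03 CPM at 48 h (1.8 ± 0.32, adjusted p = 0.00388). Shmt1, a serine hydroxymethyltransferase, was lower (-0.51). Tk1, the cytosolic thymidine kinase, was listed at 1.12 CPM in sham pool 1 and 1.55 and 1.09 CPM at 48 h, which did not pass the test. The test no longer passed for Shmt1 (-0.48, adjusted p = 0.0829 without 48 h pool 1).

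Upstream of replication, Ccnd1, the gene of cyclin D1 (gene 12443, chr7:144929931-144939831 in GRCm38), had 39.7 and 32.8 CPM in the sham pools and 297 and 190.1 CPM at 48 h. Its groups did not overlap and the log2 difference was 2.75 ± 0.28, adjusted p = 6.82e-05; the opposite-strand gene LTO1 shares 23.4% of its exons. Of 12 D and E cyclins and their kinases, 6 were higher and 0 lower in the complete tables (median 1.28), and 3 without 48 h pool 1. Ccne1 had 1.25 CPM in sham pool 1 and 12.4 and 8.59 CPM at 48 h (3.05 ± 0.60, adjusted p = 0.00629), and Ccne2 differed by 1.70 ± 0.70, adjusted p = 0.115, short of the threshold. Cdk2 had 5.87 and 7.18 CPM in sham and 16.04 and 12.7 CPM at 48 h (1.14 ± 0.25, adjusted p = 0.00539), and Cdk4 differed by 0.35 ± 0.16, adjusted p = 0.123. The other D cyclin genes Ccnd2 and Ccnd3 differed by -0.56 and 0.38 and were not called. Leaving out 1 library took away the calls of Cdk2 (1.0, adjusted p = 0.0592 without sham pool 1).

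Among the regulators of these programmes, 10 of 25 E2F, MYB and DREAM genes were higher and 2 lower in the complete tables (median 0.77), with 5 higher without 48 h pool 1 and 6 without pool 2. Of the 10, 7 were unlisted in sham pool 2 and 4 of these lay above its bound in both 48 h pools, and with both sham pools 3 of 13 genes were higher and 3 lower (median 0.02). Foxm1, the transcription factor of the G2 and mitotic genes, had 2.25 CPM in sham pool 1 and 55.5 and 47.4 CPM at 48 h (4.5 ± 0.56, adjusted p = 0.000705). The activator genes E2f1 and E2f2 differed by 1.79 and 1.73, and E2f7 and E2f8, which encode repressors, by 2.80 and, with both sham pools, 1.53. E2f7 was not above the bound of sham pool 2 in both 48 h pools. E2f8 had 11.7 and 10.1 CPM in sham and 27.9 and 34.96 CPM at 48 h. Mybl2 (B-MYB) was listed at 0.2497 CPM in sham pool 1 and 1.45 and 0.988 CPM at 48 h and was not called (2.22 ± 1.29, adjusted p = 0.259). The pocket protein genes went apart: Rb1 and Rbl2, which hold cells out of the cycle, were lower (-0.68 and -0.62), and Rbl1 was higher (1.87). Myc had 16.2 and 7.43 CPM in sham and 8.6 and 5.04 CPM at 48 h (-0.79 ± 0.38, adjusted p = 0.125); in the complete tables, against sham pool 1 alone, it was called lower (-1.25 ± 0.36, adjusted p = 0.0355). Some calls ended when 1 library was left out: E2f2 (1.44 without 48 h pool 1) and E2f7 (2.56 without 48 h pool 2). Those of Rb1 and Rbl2 ended without sham pool 1 (-0.49 and -0.46). Scaling by library totals also ended the call of Rb1 (adjusted p = 0.12) and Rbl2 (adjusted p = 0.0919).

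Inhibitors of the cycle and targets of p53 were among the higher genes. Cdkn1a, encoding p21, had 44.6 and 92.7 CPM in the sham pools and 203 and 239.6 CPM at 48 h (1.69 ± 0.33, adjusted p = 0.00306), with both 48 h pools above both sham pools. Cdkn2c (p18) had 2.87 CPM in sham pool 1 and 19.1 and 18.9 CPM at 48 h (2.71 ± 0.35, adjusted p = 0.000767), while Cdkn1b (p27) differed by 0.26 ± 0.17, adjusted p = 0.262. Trp53 itself differed by 1.22. Gadd45a and Sesn1, which answer DNA damage and stress, were lower. Sesn1 differed by -0.82 on the log2 scale with both sham pools. Gadd45a differed by -2.26 in the complete tables, against sham pool 1 alone. It was unlisted in sham pool 2, so its fall could not be checked there. Psrc1, a spindle-associated p53 target, had 0 reads in sham pool 1 and 4.44 and 3.85 CPM at 48 h, at least 11.1-fold higher than sham pool 1 taken at a floor of 3 reads but under the bound of sham pool 2. Of the list, 9 of 22 tested genes were higher and 2 lower in the complete tables (median 0.79), and 4 higher without 48 h pool 2. Of the 9, 5 were unlisted in sham pool 2 and 3 of these lay above its bound, and with both sham pools 4 of 10 were higher and 1 lower (median 0.41). Of 30 DNA repair and checkpoint genes 18 were higher and 0 lower in the complete tables (median 2.08), and 11 without 48 h pool 1. Of the 18, 16 were unlisted in sham pool 2 and 6 of these lay above its bound in both 48 h pools, and with both sham pools 3 of 7 were higher and 0 lower (median 0.14). H2afx, the histone variant phosphorylated at breaks, had 12.6 and 11.6 CPM in sham and 71.2 and 53.8 CPM at 48 h (2.37 ± 0.24, adjusted p = 6.82e-05), and Brca1 differed by 2.58. Fewer pools ended the calls of Sesn1 (-0.51, adjusted p = 0.338 without sham pool 1). Under library totals alone the call ended for Sesn1 (adjusted p = 0.112). The size moved with single libraries for Cdkn1a (2.31 without sham pool 2).

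Several chromatin and tubulin genes could be read in both sham pools. Of 9 tested genes of histones and other chromatin proteins, Hmgn2 among them, 4 were higher and 1, Hist1h2bc, was lower (median 0.43). Fewer were higher without 48 h pool 2 or without either sham pool. H2afz, a variant histone, had 27.8 and 24.3 CPM in sham and 97.4 and 98.7 CPM at 48 h (1.91 ± 0.21, adjusted p = 9.75e-05). Hmgn2, a nucleosome-binding protein gene, had 26.8 and 26.5 and then 135 and 146 CPM (2.40 ± 0.18, adjusted p = 1.55e-05). Of 9 tested tubulin and stathmin genes 8 were higher and 0 lower (median 1.85). The largest rise of all genes named with both sham pools was that of Tubb6, a class V beta-tubulin, from 8.36 and 8.06 to 165 and 197 CPM (4.46 ± 0.48, adjusted p = 9.75e-05). Stmn1, a microtubule destabilizer, followed with 14.9 and 12.6 CPM in sham and 283 and 287 CPM at 48 h (4.37 ± 0.37, adjusted p = 3.4e-05). Tubb5, Tubb4b, Tuba1b and Tuba1c differed by 1.83, 1.95, 2.44 and 1.85, with 98.5 and 80 CPM of Tubb5 in sham and 329.6 and 307 CPM at 48 h. Tuba4a was not called (-0.28). Tubulins and histones are families of similar genes, and reads may have been split between members.

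The neighbouring times place 48 h within the course. Against 24 h, 802 of 12199 genes differed (6.57%), 512 higher at 48 h (4.20%) and 290 lower (2.38%), with a median of -0.02. The counts were 158 higher and 61 lower without 24 h pool 1, 559 and 662 without 24 h pool 2, and 568 and 175 with library totals alone. Of the mitotic kinase list 21 genes were higher at 48 h than at 24 h (median 2.12), of the spindle list 27 (median 2.70) and of the kinetochore list 26 (median 1.72), and 0 were lower in any of the 3. The kinetochore count was 8 without 24 h pool 1 and 10 without either 48 h pool. Of the origin list 2 were higher (median 0.43) and of the fork list 1 (median 0.32), with 0 lower. Ccnb2 had 1.67 and 2.66 CPM at 24 h and 61.8 and 78.5 CPM at 48 h, a difference of 5.0 ± 0.54, adjusted p = 0.000374, and Cdc20 had 6.78 and 9.62 CPM at 24 h (4.42 ± 0.55, adjusted p = 0.000702). Mcm6, by contrast, had 70.6 and 66.5 CPM at 24 h and Pcna 63.6 and 55.9 CPM, which overlapped or exceeded their 48 h values. Cdkn1a was higher at 48 h than at 24 h as well (1.27 ± 0.26, adjusted p = 0.0109). Single libraries decided the calls of Cdkn1a against 24 h (1.15, adjusted p = 0.0902 without 48 h pool 2).

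Against 72 h, 80 of 12199 genes differed (0.656%), 28 higher at 48 h (0.230%) and 52 lower (0.426%), with a median of -0.01. Without 48 h pool 2, 0 genes passed in edgeR, with 1039 at an unadjusted p under 0.05, and with all pools DESeq2 gave 93 higher and 132 lower genes. Summed over the spindle list, sham pool 1 had 62.9 CPM, the 24 h pools 169 and 171, the 48 h pools 1073 and 1204, and the 72 h pools 384 and 763. Both 48 h pools lay above both 72 h pools, and the 72 h pools differed from each other by more than the 48 h pools did. Of the 3 mitotic lists, 1 gene of the kinase list, Ube2s, was higher at 48 h than at 72 h (1.31 ± 0.19, adjusted p = 0.0132). Of the tubulin list 4 were higher, among them Tubb5 (0.84 ± 0.15, adjusted p = 0.027), and 0 without 48 h pool 2 or 72 h pool 1. A smaller set of libraries did not keep the calls of Ube2s against 72 h (1.11, adjusted p = 0.226 without 48 h pool 2) and Tubb5 against 72 h (0.89, adjusted p = 0.264 without 48 h pool 2).

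**Figure D2:**
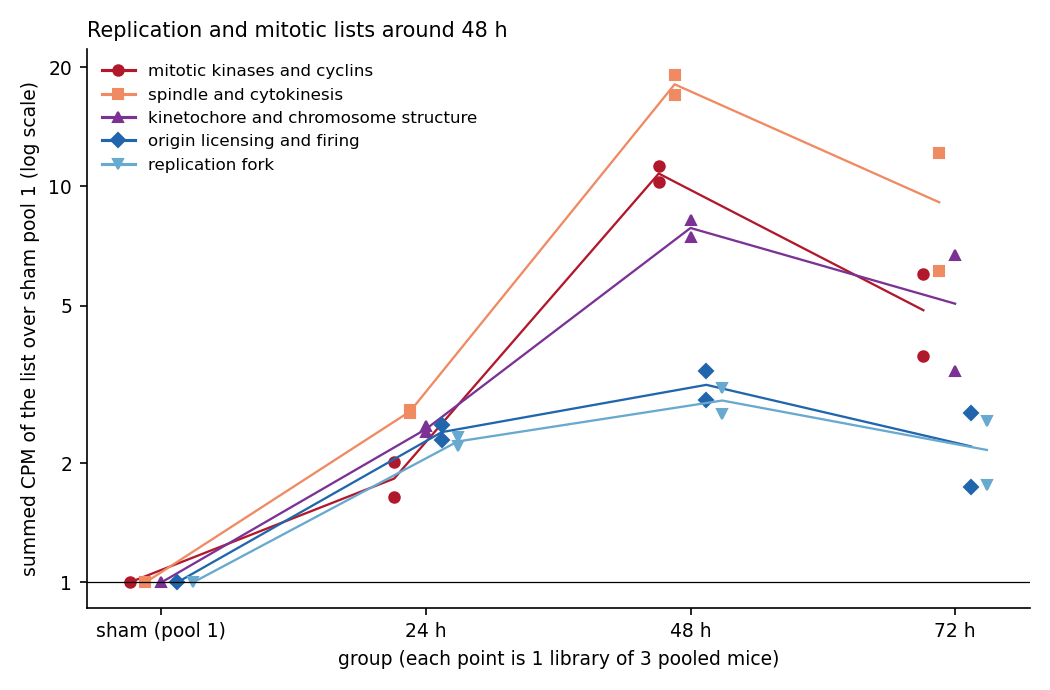
Summed CPM of 5 gene lists relative to sham pool 1 (y axis, log scale) in sham, 24 h, 48 h and 72 h livers (x axis). Each point is 1 library of 3 pooled mice and lines join group means. The 3 mitotic lists stand highest at 48 h, and the origin and fork lists change less between 24 h and 48 h.

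Of genes for growth, 8 of 19 tested ribosome biogenesis genes were higher and 0 lower with both sham pools (median 0.35), and 5 without sham pool 2. Rrp12 and Nhp2, which act in rRNA processing and modification, differed by 1.01 and 0.93. Of 26 ribosomal protein genes 7 were higher and 1 lower (median 0.25), and 1 was higher without 48 h pool 2 or without sham pool 1. Of 14 purine and pyrimidine synthesis genes 4 were higher and 1 lower (median 0.32): Umps, of the pyrimidine route, differed by 0.68 and Impdh2, of guanine nucleotide synthesis, by 0.66. Slc1a4, a neutral amino acid transporter gene, had 7.49 and 8.44 CPM in sham and 36.04 and 30.6 CPM at 48 h (2.06 ± 0.28, adjusted p = 0.00033).

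The major urinary protein genes fell, with other genes that male mouse liver expresses more than female liver, a pattern set by growth hormone pulses. Of 24 such genes 23 were lower and 0 higher with both sham pools (median -2.42, against -0.05 over all genes), and the list's summed level went from 56547 and 53408 CPM in sham to 15690 and 12587 CPM at 48 h. Mup20, which encodes the pheromone darcin, had 12003 and 11083 CPM in the sham pools and 2406 and 1157 CPM at 48 h (-2.70 ± 0.45, adjusted p = 0.00116). Mup1, Mup7, Mup17 and Mup12 differed by -4.05, -3.66, -3.78 and -4.24, and Mup9, Mup11, Mup14, Mup16 and Mup21 by between -3.45 and -3.96. The Mup genes are near-identical copies, so the division of reads among them is uncertain and the sum is the safer value. Outside that family, Elovl3, a fatty acid elongase gene, had 698 and 502 CPM in sham and 95.8 and 108 CPM at 48 h (-2.56 ± 0.45, adjusted p = 0.00153). Slco1a1, an organic anion transporter gene, had 425 and 349 and then 56.7 and 60.3 CPM (-2.72 ± 0.56, adjusted p = 0.00381), and the steroid dehydrogenase gene Hsd3b5 differed by -3.14. Egfr was the 1 gene of the list not called (-0.32). Values that shifted by over 1.5 times with 1 library fewer were those of Mup1 (-4.93 without 48 h pool 1), Mup7 (-4.35 without 48 h pool 1), Mup17 (-5.08 without 48 h pool 1), Mup9 (-4.48 without 48 h pool 1) and Mup16 (-4.57 without 48 h pool 1).

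Genes that female liver expresses more were scarce in sham. Of 15 tested, 5 were higher and 0 lower in the complete tables, with a median of 2.22 as fitted and 0.97 with the 3 genes at 0 sham reads placed at their lower bound, and 0 were called without 48 h pool 2. All 5 were unlisted in sham pool 2, and 2 of them lay above its bound in both 48 h pools. The 3 genes listed in both sham tables had a median of -0.04, with 1 higher. Cyp2a4 had 0.749 CPM in sham pool 1, 0.938 and 0.717 CPM at 24 h and 23.1 and 39.5 CPM at 48 h (log2 difference from 24 h 5.21 ± 1.15, adjusted p = 0.0179). Cyp2b9 had 1 read in sham pool 1 and 72 and 188 reads at 48 h, a ratio of 102 (95% counting interval 18.1 to 4033). Both belong to families of similar genes. In the growth hormone axis 6 of 13 genes were lower and 1 higher (median -0.55), and between 1 and 3 were lower when any 1 of the 4 libraries was left out. Ghr, the receptor, had 585 and 516 CPM in sham and 211 and 175 CPM at 48 h (-1.51 ± 0.25, adjusted p = 0.00111). Its signal carriers Jak2 and Stat5b differed by -0.68 and -0.59. Igf1, the growth factor it controls, had 605 and 654 and then 458 and 399 CPM (-0.55 ± 0.20, adjusted p = 0.0486). Igfbp1 had 255 and 178 CPM in sham and 163 and 144 CPM at 48 h and was not called (-0.49 ± 0.38, adjusted p = 0.334). The receptor gene Igf2r was the riser (0.81). No call remained for Cyp2a4 against 24 h (5.42, adjusted p = 0.128 without 24 h pool 1), Jak2 (-0.43, adjusted p = 0.285 without 48 h pool 1), Stat5b (-0.35, adjusted p = 0.254 without sham pool 1) and Igf1 (-0.46, adjusted p = 0.231 without 48 h pool 2). Without TMM factors the threshold was missed by Jak2 (adjusted p = 0.143), Stat5b (adjusted p = 0.0818) and Igf1 (adjusted p = 0.179).

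**Figure D3:**
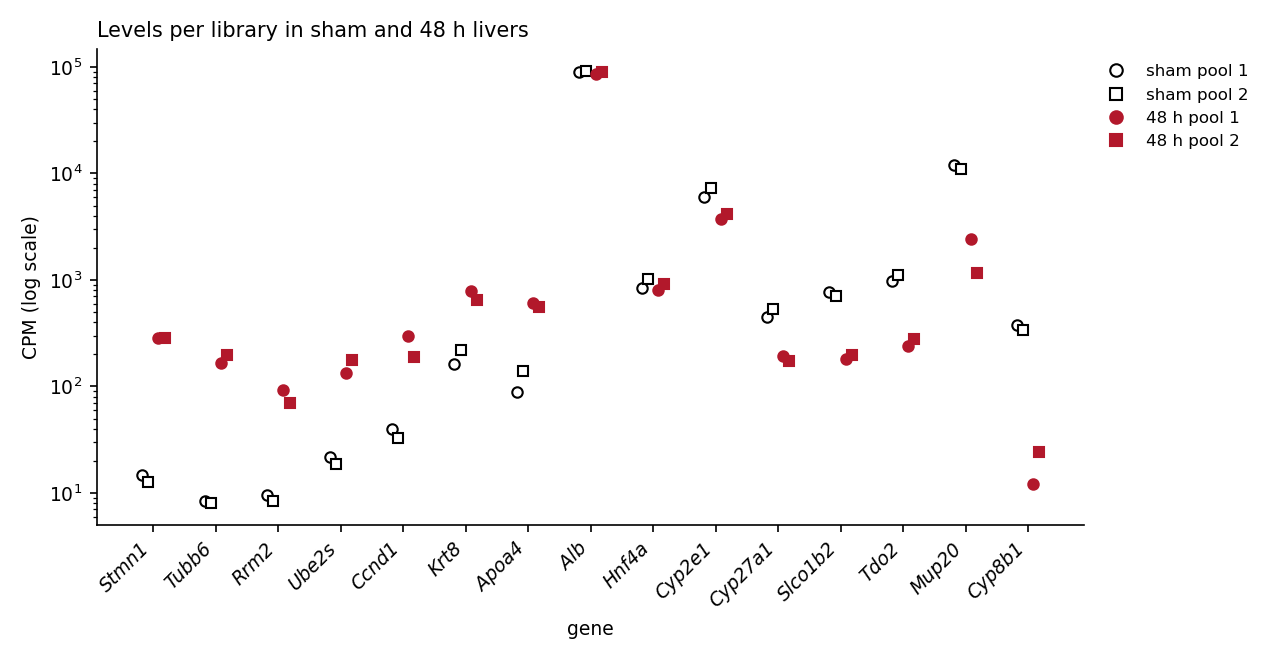
CPM (y axis, log scale) of 15 genes (x axis) in each of the 4 libraries; open symbols are sham pools and filled symbols 48 h pools. The symbols of Alb and Hnf4a lie close together, the genes to their left are higher in both 48 h pools and the genes to their right lower in both.

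Most bile acid genes fell. Of 23 tested with both sham pools 14 were lower and 0 higher (median -0.95), and their summed level went from 7531 and 7242 CPM to 3602 and 3388 CPM. Cyp8b1, the sterol 12-alpha-hydroxylase that makes cholic acid (gene 13124, chr9:121914356-121916305 in GRCm38), had the largest fall named with both sham pools, from 378 and 342 CPM to 12.2 and 24.1 CPM (-4.31 ± 0.85, adjusted p = 0.00312). Cyp7a1, whose enzyme limits the rate at which bile acids are made, had 146 and 85.3 CPM in sham and 20.97 and 41.1 CPM at 48 h (-1.90 ± 0.67, adjusted p = 0.0462), and at 72 h its pools stood apart at 189.6 and 27.8 CPM. Cyp27a1 and Cyp7b1, of the alternative route, differed by -1.42 and -2.24. The uptake transporters Slc10a1 (NTCP) and Slco1b2 had 585 and 601 and 768 and 712 CPM in sham, and 269 and 294 and 183 and 196 CPM at 48 h (-1.08 ± 0.20, adjusted p = 0.00195 and -1.97 ± 0.39, adjusted p = 0.00324). The export pump gene Abcb11 differed by -0.78, and the bile acid receptor gene Nr1h4 (FXR) had 124 and 92.2 and then 55.3 and 50.4 CPM (-1.03 ± 0.21, adjusted p = 0.00362). Nr0b2 (SHP), a target of that receptor, was not called (-0.48). Calls lost on leaving out 1 library were those of Cyp7a1 (-1.45, adjusted p = 0.236 without 48 h pool 1) and Cyp7b1 (-1.86, adjusted p = 0.0781 without 48 h pool 2). Library totals alone ended the call of Cyp7a1 (adjusted p = 0.0593), and so did DESeq2 (adjusted p = 0.0617).

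Of 26 drug and steroid cytochrome P450 genes 17 were lower and 1 higher (median -0.88), with 8 lower without 48 h pool 1 and 9 without pool 2. Cyp2e1, the pericentral ethanol-oxidizing enzyme, had 5951 and 7275 CPM in sham and 3741 and 4144 CPM at 48 h (-0.75 ± 0.20, adjusted p = 0.0131). Cyp2d9, a male-biased steroid hydroxylase, had 879.8 and 899.6 and then 359.7 and 336 CPM (-1.35 ± 0.18, adjusted p = 0.000322), and Cyp2f2, a periportal enzyme, differed by -1.24. Cyp1a2 differed by -1.26 ± 0.37, adjusted p = 0.0221, but its pools were uneven, at 2004 and 841 CPM in sham and 653 and 532 CPM at 48 h. Cyp3a11 had 3833 and 3794 CPM in sham and 4091 and 3382 CPM at 48 h, which overlapped. Por, the reductase that feeds electrons to these enzymes, was the riser (0.70 ± 0.18, adjusted p = 0.0131). The P450 genes are families of related sequences, so their shares of reads may be inexact. Without 1 of the libraries the threshold was missed by Cyp2e1 (-0.64, adjusted p = 0.108 without 48 h pool 1), Cyp1a2 (-0.51, adjusted p = 0.343 without sham pool 1) and Por (0.42, adjusted p = 0.138 without sham pool 1).

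The lists that hold conjugating enzymes differed in their counts, and each held genes of both directions. Of 23 UGT, SULT and FMO genes 13 were lower and 2 higher (median -0.78), and 8 were lower without 48 h pool 2. Ugt2b1 had 1355 and 1021 CPM in sham and 303 and 234 CPM at 48 h (-2.15 ± 0.35, adjusted p = 0.000972), Ugt2b38 differed by -3.16 and the sulfotransferase gene Sult1a1 was higher by 0.80. Sult2a8, a hepatic bile acid sulfotransferase gene, had 671 and 681 CPM in sham and 67.1 and 65.7 CPM at 48 h (-3.35 ± 0.63, adjusted p = 0.0023). Of 23 glutathione S-transferases and NRF2 targets 9 were higher and 3 lower (median 0.45), and 2 were higher without sham pool 1. Gstm3 had 67.5 and 69.04 CPM in sham and 740.0 and 373 CPM at 48 h (3.03 ± 0.68, adjusted p = 0.00589) and Gstm2 73.03 and 75.5 and then 285 and 269 CPM (1.90 ± 0.25, adjusted p = 0.000306). These mu-class genes are close copies. Nqo1, an NRF2 target quinone reductase, had 2.87 and 7.81 CPM in sham and 21.5 and 19.1 CPM at 48 h (1.92 ± 0.42, adjusted p = 0.00541). Gsta3, Gstp1 and Mgst1 were lower (-0.81, -0.56 and -0.79). Not past the threshold with 1 library fewer were Ugt2b38 (-2.96, adjusted p = 0.0512 without 48 h pool 2), Sult1a1 (0.54, adjusted p = 0.17 without sham pool 1), Gstm3 (3.01, adjusted p = 0.0542 without sham pool 1), Nqo1 (1.37, adjusted p = 0.061 without sham pool 1) and Gstp1 (-0.41, adjusted p = 0.162 without 48 h pool 2). Scaling by library totals also ended the call of Gstp1 (adjusted p = 0.0822). One pool moved the value of Nqo1 (2.81 without sham pool 2).

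**Figure D4:**
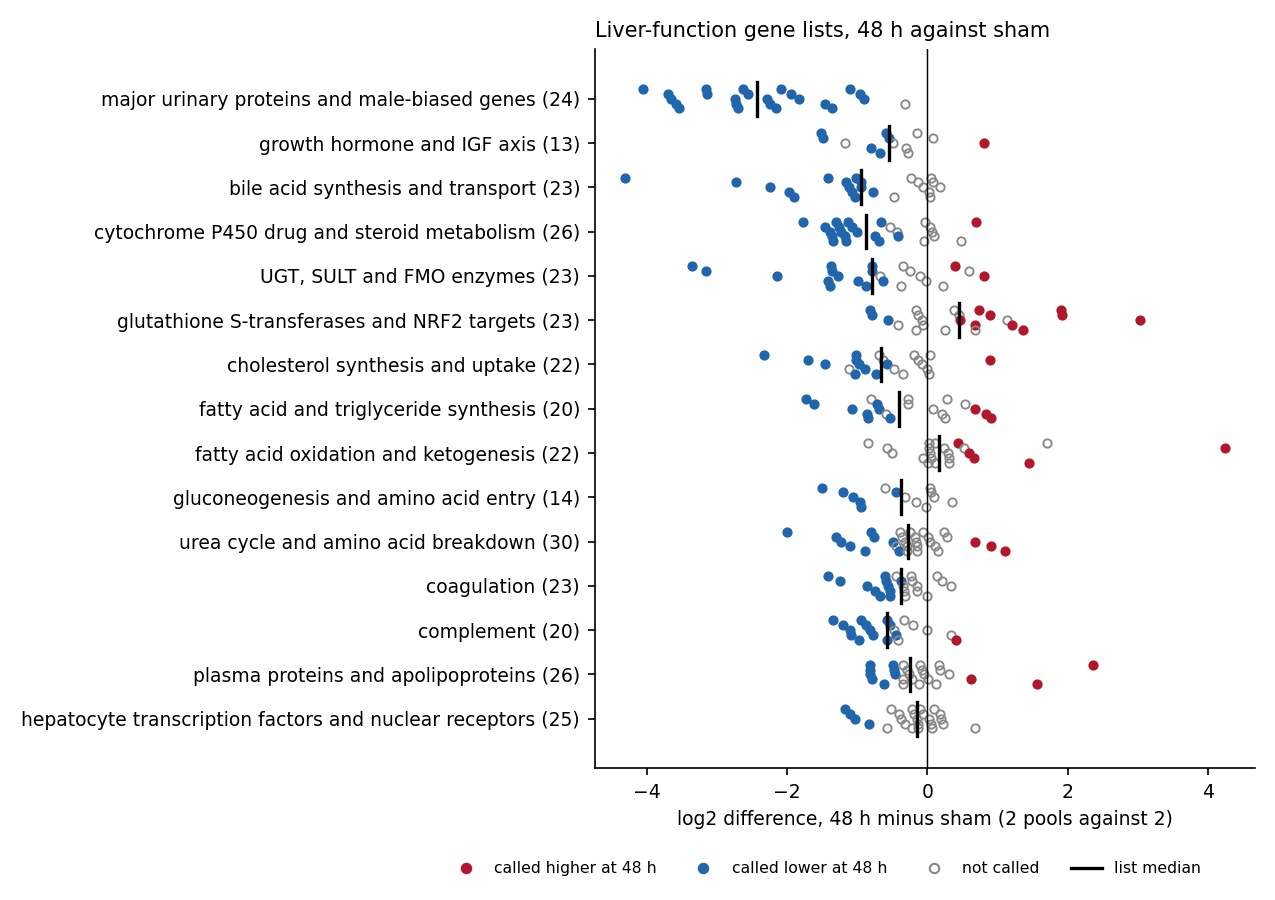
Log2 difference between 48 h and sham (x axis) for the members of 15 liver-function gene lists that both sham tables hold (y axis, number tested in brackets). Each point is 1 gene, filled where called and open where not, and the bar is the list's median. The male-biased list sits furthest to the left, at a median of -2.42, and the glutathione S-transferase list to the right, at 0.45.

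In lipid synthesis, several cholesterol genes fell. Of 22, 10 were lower and 1 higher (median -0.66), with 2 lower without 48 h pool 2. Idi1, of the isoprenoid part of the route, had 146 and 184 CPM in sham and 33.1 and 32.6 CPM at 48 h (-2.33 ± 0.38, adjusted p = 0.00102), and it was below both neighbouring times (-1.82 ± 0.38, adjusted p = 0.0127 against 24 h and -2.06 ± 0.38, adjusted p = 0.0295 against 72 h). Sqle, the squalene epoxidase, had 66.5 and 76.7 and then 30.5 and 39.8 CPM (-1.03 ± 0.29, adjusted p = 0.0197), and Cyp51, the lanosterol demethylase, differed by -1.45. Against 72 h, 8 genes of the list were lower at 48 h and 0 higher (median -1.13), and 0 were lower without 48 h pool 2 or 72 h pool 1. With 1 library left out, the call ended for Idi1 against 24 h (-1.34, adjusted p = 0.128 without 24 h pool 1), Idi1 against 72 h (-2.04, adjusted p = 0.367 without 48 h pool 2) and Sqle (-0.81, adjusted p = 0.147 without 48 h pool 1). The estimate depended on 1 pool for Idi1 against 72 h (-1.37 without 72 h pool 1).

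Of 20 fatty acid and triglyceride synthesis genes 8 were lower and 3 higher (median -0.40), with 3 lower without 48 h pool 2, and the 48 h pools disagreed. Fasn, the fatty acid synthase, had 386 and 419 CPM in sham, 924 and 247 CPM at 48 h and a difference of 0.54 ± 0.47, adjusted p = 0.391. Pool 1 lay above both sham pools and pool 2 below them. Srebf1, the transcription factor of lipogenesis, had 151 and 145 and then 346 and 208 CPM (0.91 ± 0.23, adjusted p = 0.0113), and Thrsp, a lipogenic regulator, 365 and 448 and then 179 and 65.8 CPM (-1.73 ± 0.37, adjusted p = 0.00464). Scd1, the stearoyl-CoA desaturase, had 5402 and 5359.9 CPM in sham and 3769.5 and 2371 CPM at 48 h, which did not pass (-0.81), and 11489 and 14429 CPM at 72 h (-2.07 ± 0.35, adjusted p = 0.0209). Of 22 fatty acid oxidation genes 5 were higher and 0 lower (median 0.17), and 1 was higher without sham pool 1. Cyp4a14, an omega-hydroxylase controlled by PPAR-alpha, had 6.74 and 16.1 CPM in sham and 168 and 263 CPM at 48 h (4.24 ± 0.97, adjusted p = 0.00664), with 1033 and 251 CPM at 24 h. Vnn1 and Acadl, further targets of that receptor, differed by 1.45 and 0.67. The test no longer passed for Srebf1 (0.53, adjusted p = 0.124 without 48 h pool 1), Scd1 against 72 h (-1.77, adjusted p = 0.326 without 48 h pool 2), Cyp4a14 (3.74, adjusted p = 0.0717 without sham pool 1) and Acadl (0.55, adjusted p = 0.103 without 48 h pool 2). Leaving out 1 pool shifted Thrsp (-2.59 without 48 h pool 1) and Cyp4a14 (5.0 without sham pool 2).

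Of 14 gluconeogenesis genes 6 were lower and 0 higher (median -0.38), with 2 lower without 48 h pool 2. Pck1, the cytosolic phosphoenolpyruvate carboxykinase, had 2073 and 2561 CPM in sham and 1305 and 1094 CPM at 48 h (-0.95 ± 0.22, adjusted p = 0.00643). G6pc, the glucose-6-phosphatase, had 739 and 554 and then 325 and 235 CPM (-1.21 ± 0.30, adjusted p = 0.0092). Of 18 glycolytic genes 4 were higher and 4 lower (median 0.18). Among them Pklr, the liver pyruvate kinase gene, was lower (-1.51), and the widely expressed Pkm and Ldha were higher. Pkm had 20.1 and 21.5 CPM in sham and 50.2 and 65.5 CPM at 48 h (1.47 ± 0.32, adjusted p = 0.00531), and Ldha 651 and 716 and then 1424 and 1920.1 CPM (1.29 ± 0.15, adjusted p = 0.000139). The opposite-strand gene Hcn3 shares 22% of the exons of Pklr. Of 30 urea cycle and amino acid genes 9 were lower and 3 higher (median -0.27). Tdo2, which opens tryptophan breakdown, had 981 and 1103 CPM in sham and 241 and 278 CPM at 48 h (-2.01 ± 0.28, adjusted p = 0.00037), and Otc, of the urea cycle, 435 and 426 and then 196 and 169.7 CPM (-1.23 ± 0.19, adjusted p = 0.00084). Oat, an ornithine aminotransferase, was higher (0.90) and Cps1, the first urea cycle enzyme, was not called (0.14). Leaving out 1 library took away the calls of Pck1 (-0.83, adjusted p = 0.063 without 48 h pool 2) and G6pc (-0.99, adjusted p = 0.0888 without 48 h pool 2).

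Alb, the gene of albumin, had 90122 and 91880.1 CPM in sham and 85391 and 89777 CPM at 48 h and was not called (-0.06 ± 0.19, adjusted p = 0.841, and 0.13 with library totals alone). Of 26 plasma protein and apolipoprotein genes 8 were lower and 3 higher (median -0.25), with 4 lower without either 48 h pool. Apoa4 was higher, from 88.6 and 138 to 609.8 and 553 CPM (2.36 ± 0.53, adjusted p = 0.00627), as was Apoc2 (1.55); both overlap other annotated transcripts, over 34.9% and 79.5% of their exons. Of 23 coagulation genes 11 were lower and 0 higher (median -0.37), with 3 lower without 48 h pool 1. F9, coagulation factor IX, had 295 and 273 CPM in sham and 117 and 124 CPM at 48 h (-1.24 ± 0.21, adjusted p = 0.00132), and Fga, of fibrinogen, 8271 and 8456 and then 6794 and 12488 CPM, which overlapped. Of 20 complement genes 13 were lower and 1 higher (median -0.57), with 8 lower without 48 h pool 1. C9, of the membrane attack complex, had 1277 and 1043 CPM in sham and 467 and 443 CPM at 48 h (-1.35 ± 0.21, adjusted p = 0.000774), and C8a and C8b differed by -1.08 and -1.20. Mbl2, a lectin that starts the pathway, was the riser (0.40) and C3, its central protein, was not called (0.34). Some calls ended when sham pool 1 was left out: those of Apoa4 (2.07) and Mbl2 (0.29).

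Of 25 transcription factor genes of hepatocytes 4 were lower (16%, near the 17% of all genes) and 0 higher (median -0.15). Hnf4a had 837 and 1021 CPM in sham and 805 and 914 CPM at 48 h and was not called (-0.11 ± 0.15, adjusted p = 0.574, and 0.07 with library totals alone). Cebpa, a factor of resting hepatocytes, had 203 and 221 and then 117 and 122 CPM (-0.83 ± 0.17, adjusted p = 0.00434), whereas Cebpb had 50.9 and 65.1 and then 61.8 and 62.02 CPM (0.09 ± 0.18, adjusted p = 0.717). Nr3c1, the glucocorticoid receptor, differed by -1.18 and Thrb, the thyroid hormone receptor, by -1.1. Glul, the pericentral glutamine synthetase, had 1149 and 1333 CPM in sham and 993 and 1032 CPM at 48 h (-0.29 ± 0.17, adjusted p = 0.194). Of the fetal liver genes, Afp had 1.498 CPM in sham pool 1 and 8.41 and 5.33 CPM at 48 h (2.18 ± 0.55, adjusted p = 0.0205), and 48 h pool 2 lay under the bound of sham pool 2. In the same list H19 had 0.125 and then 0.966 and 1.09 CPM (not called), and Igf2, which was too scarce to test, 0.624 and then 0.483 and 0.79 CPM. The other largest risers by the naming rule came from no list of the cycle. They were Map4k4, a stress kinase (9.99 and 9.58 CPM in sham, 81.8 and 105 CPM at 48 h, 3.25 ± 0.30, adjusted p = 4.98e-05), Tagln2 and Anxa2, which bind actin or membranes (2.91 and 2.57), and Ly6d, a surface protein gene, with 2 reads in sham pool 1 and 161 and 204 reads at 48 h, a ratio of 71.4 (95% counting interval 19.6 to 592). Serpina12 (vaspin) was among the largest falls, from 58.8 and 36.8 to 6.47 and 2.37 CPM (-3.43 ± 0.43, adjusted p = 0.000231). Fewer pools ended the calls of Nr3c1 (-1.11, adjusted p = 0.0647 without 48 h pool 2) and Afp (1.79, adjusted p = 0.0936 without 48 h pool 1). The fitted size changed most for Serpina12 (-4.29 without 48 h pool 1).

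Acute-phase genes, which the liver secretes in inflammation, differed between the pools of a group. Of 23 tested with both sham pools 1 was higher and 3 lower (median 0.20), or 4.35% and 13%, against 14.2% and 17% of all genes. In all 26 genes of the list 48 h pool 2 lay above 48 h pool 1, by a median of 0.99 on the log2 scale. Sham pool 2 also stood above sham pool 1 in the list's sum, at 58343 against 40483 CPM. Pool 2 was also the higher 48 h pool in 18 of 22 oxidative phosphorylation and 18 of 23 coagulation genes. Their medians were 0.07 and 0.11. In 3 of 21 fatty acid and triglyceride synthesis genes and 4 of 24 male-biased genes it was the higher. The share over all genes was not counted. Lcn2 (lipocalin 2) had 83.3 and 655 CPM in sham and 597 and 1905 CPM at 48 h (1.76 ± 0.95, adjusted p = 0.17). Saa1, serum amyloid A1, had 902 and 2584 CPM in sham and 1332 and 2599.9 CPM at 48 h (0.17 ± 0.67, adjusted p = 0.861), so that the groups overlapped. Saa genes are close copies. Steap4, a metalloreductase, was the 1 riser, at 216 and 177 CPM in sham and 348 and 1728 CPM at 48 h (2.40 ± 0.70, adjusted p = 0.0215). Crp and Serpina3k were lower (-1.04 and -0.95), the latter in a family of similar genes. Of 14 cytokine and NF-kB genes 3 were higher and 0 lower (median 0.41): Stat3 had 169.7 and 153 CPM in sham and 200.1 and 293 CPM at 48 h (0.61 ± 0.21, adjusted p = 0.0451) and Icam1 14.7 and 14.7 and then 30.2 and 70.8 CPM (1.78 ± 0.51, adjusted p = 0.0191). In 22 of 22 genes of that list pool 2 was the higher 48 h pool. Single libraries decided the calls of Steap4 (0.83, adjusted p = 0.392 without 48 h pool 2), Serpina3k (-0.86, adjusted p = 0.0859 without 48 h pool 1), Stat3 (0.31, adjusted p = 0.381 without 48 h pool 2) and Icam1 (1.04, adjusted p = 0.203 without 48 h pool 2).

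**Figure D5:**
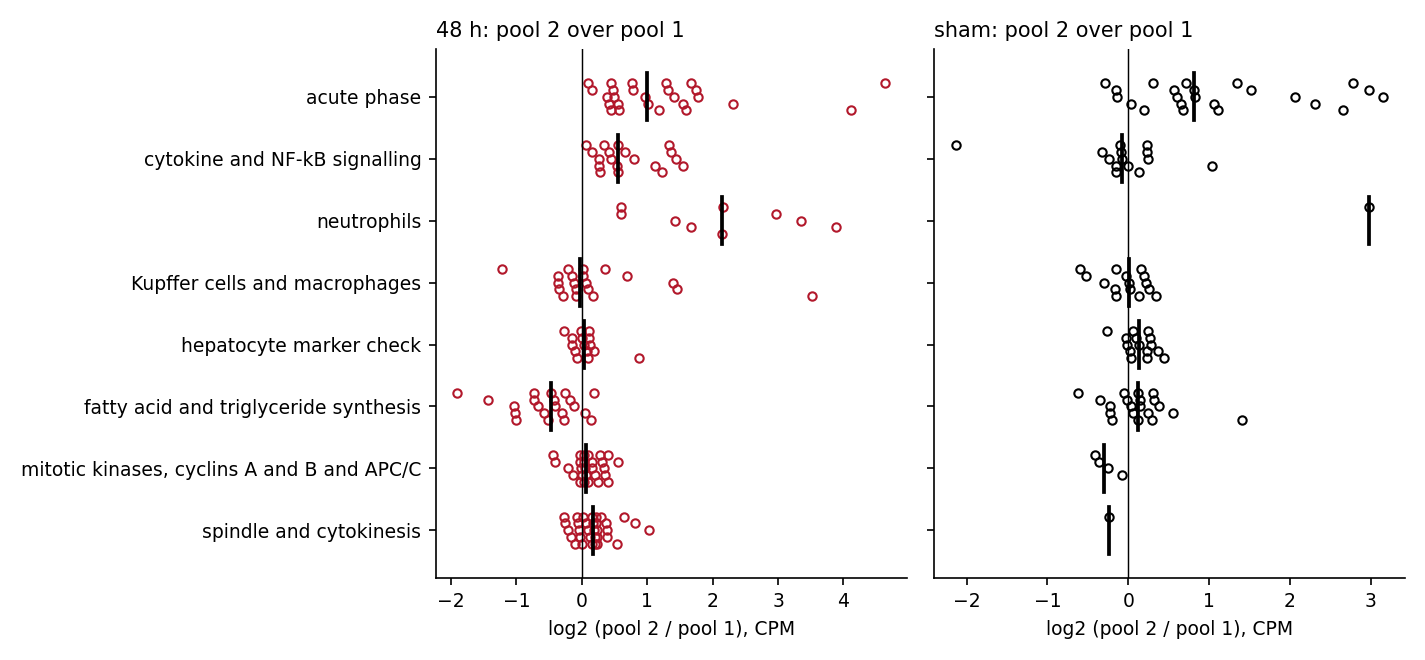
Log2 ratio of pool 2 to pool 1 (x axis) within the 48 h group (left) and within the sham group (right) for members of 8 gene lists (y axis); each point is 1 gene with at least 10 reads in 1 of the 2 pools and reads in both, and the bar is the median. Acute-phase genes lie to the right of 0 throughout at 48 h, while the mitotic and spindle lists lie near 0.

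The neutrophil list, which also holds the Lcn2 gene described above, moved with that pool. Of 12 tested, 1 was higher and 0 lower in the complete tables, and 48 h pool 2 was above pool 1 in 12 of 12. S100a8 had 1.997 CPM in sham pool 1 and 1.55 and 12.05 CPM at 48 h (1.75 ± 1.47, adjusted p = 0.44), and Ngp had 0 reads in sham pool 1 and in 48 h pool 1 and 11.9 CPM in 48 h pool 2. The part of these cells, or of inflammation, in the 48 h values was not tested. The mitotic and spindle lists differed by medians of 0.06 and 0.17 between the 48 h pools. Marco, a scavenger receptor gene of macrophages, was among the largest risers with uneven pools, at 22.2 and 14.7 CPM in sham and 83.3 and 228 CPM at 48 h (3.07 ± 0.60, adjusted p = 0.00297), and so was Plscr1, an interferon-inducible phospholipid scramblase, at 11.6 and 8.32 and then 28.6 and 87.2 CPM (2.54 ± 0.49, adjusted p = 0.00299). The size moved with single libraries for Marco (2.17 without 48 h pool 2) and Plscr1 (1.52 without 48 h pool 2).

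Markers of other liver cells differed from list to list. Of 14 tested stellate cell and matrix genes 7 were higher and 2 lower with both sham pools (median 1.06), and 4 higher without sham pool 1. The list's sum was 543 and 452 CPM in sham and 909 and 871 CPM at 48 h. Col1a1, of type I collagen, had 7.74 and 7.94 CPM in sham and 34.98 and 25.9 CPM at 48 h (1.95 ± 0.46, adjusted p = 0.00732), and Col4a1, of basement membrane, 47.3 and 44.98 and then 134 and 148 CPM (1.61 ± 0.22, adjusted p = 0.000344). Lrat, which stores vitamin A in resting stellate cells, was lower, at 20.7 and 17.8 CPM in sham and 5.701 and 4.44 CPM at 48 h (-1.92 ± 0.43, adjusted p = 0.00569). Of 19 endothelial genes 2 were higher and 5 lower (median -0.05), with 2 lower without 48 h pool 2. Stab2, a sinusoidal scavenger receptor, had 58.7 and 59.3 CPM in sham and 69.7 and 68.7 CPM at 48 h (0.23 ± 0.17, adjusted p = 0.321), and Mrc1 was lower (-1.09). Of 15 Kupffer cell and macrophage genes 1 was higher and 2 lower (median -0.33), or 6.67% and 13.3%, against 14.2% and 17% of all genes. Clec4f, which marks Kupffer cells, had 139 and 136 and then 113 and 87.5 CPM (-0.46 ± 0.15, adjusted p = 0.0336). A smaller set of libraries did not keep the calls of Col1a1 (1.94, adjusted p = 0.0576 without sham pool 1), Lrat (-1.75, adjusted p = 0.0546 without 48 h pool 2) and Clec4f (-0.29, adjusted p = 0.262 without 48 h pool 2). Under library totals alone the call ended for Clec4f (adjusted p = 0.209).

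Of 7 tested bile duct and progenitor genes 2 were higher and 0 lower (median 0.29): the keratin genes Krt8 and Krt18, which hepatocytes also express, had 163 and 221 and 203 and 249.8 CPM in sham and 788 and 644 and 845 and 647 CPM at 48 h (1.90 ± 0.31, adjusted p = 0.00102 and 1.72 ± 0.31, adjusted p = 0.00169). In the complete tables the list's median over 15 tested genes was 0.67. Of the duct markers, Krt19 was scarce, at 0.499 CPM in sham pool 1 and 1.84 and 1.38 CPM at 48 h. Cftr had no read listed in these libraries. Markers of T, NK and B cells summed to 15.4 CPM in sham pool 1 and to 7.4 and 6.3 CPM at 48 h. Of 15 hepatocyte markers 1 was higher and 2 lower (median -0.06), and all 15 were listed in all 4 libraries. Of 20 interferon-inducible genes 8 were lower and 0 higher (median -0.87), with 4 lower without 48 h pool 1. Ifit1, an antiviral effector, had 18.1 and 37.5 CPM in sham and 2.899 and 2.37 CPM at 48 h (-3.39 ± 0.61, adjusted p = 0.00173), and Iigp1, an interferon-inducible GTPase, 465 and 495 and then 112 and 130.5 CPM (-1.98 ± 0.61, adjusted p = 0.0265). Cd74 and H2-Aa, of antigen presentation, were lower (-1.30 and -1.27). No call remained for Iigp1 (-1.84, adjusted p = 0.132 without 48 h pool 1), Cd74 (-1.12, adjusted p = 0.151 without 48 h pool 2) and H2-Aa (-1.12, adjusted p = 0.199 without 48 h pool 1). Without TMM factors the threshold was missed by H2-Aa (adjusted p = 0.0744). Values that shifted by over 1.5 times with 1 library fewer were those of Ifit1 (-2.77 without sham pool 2).

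Immediate early genes answer the first signals after resection. Of 14 tested immediate early genes 2 were higher and 4 lower with both sham pools (median 0.10), with 2 lower without either 48 h pool. The shares were 14.3% and 28.6%, against 14.2% and 17% of all genes. Fos, Dusp1, Zfp36 and Ier2 were lower (-1.25, -1.13, -0.95 and -0.69), and Jund and Klf6 higher (0.90 and 1.1). Of 13 growth factor receptor and feedback genes 2 were lower (15.4%, near the 17% of all genes) and 0 higher (median -0.16). Met, the receptor for hepatocyte growth factor, had 73.8 and 60.2 CPM in sham and 40.5 and 40.2 CPM at 48 h (-0.73 ± 0.18, adjusted p = 0.0104), and Hgfac, which activates that factor, differed by -1.30. Of 16 TGF-beta, activin and BMP genes 2 were higher (12.5%) and 4 lower (25%, median -0.12), with 1 lower without 48 h pool 2. Gdf15, a stress-induced member of the family, was lower (-1.62) and Tgfbr2, a TGF-beta receptor, higher (0.62). Of 13 Hippo pathway genes 1 was higher (7.69%) and 2 lower (15.4%, near the 17% of all genes), with a median of -0.19. Tead1, the DNA-binding partner of YAP, had 9.61 and 9.95 CPM in sham and 15.2 and 36.3 CPM at 48 h (1.39 ± 0.31, adjusted p = 0.00589), and Stk3 (MST2), a kinase of the pathway, differed by -1.01. Calls lost on leaving out 1 library were those of Fos (-0.58, adjusted p = 0.415 without sham pool 2), Ier2 (-0.44, adjusted p = 0.305 without sham pool 2), Jund (0.75, adjusted p = 0.0513 without sham pool 1), Klf6 (0.99, adjusted p = 0.111 without sham pool 2), Met (-0.58, adjusted p = 0.0997 without sham pool 1), Tgfbr2 (0.38, adjusted p = 0.309 without sham pool 2), Tead1 (0.63, adjusted p = 0.0663 without 48 h pool 2) and Stk3 (-0.93, adjusted p = 0.131 without 48 h pool 2). Library totals alone ended the call of Fos (adjusted p = 0.0831), Ier2 (adjusted p = 0.13), Met (adjusted p = 0.0524) and Stk3 (adjusted p = 0.0708).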

How the data were processed

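Poly(A) mRNA of mouse liver was sequenced in 18 libraries, each 1 pool of 3 mice, with 2 pools a group. Per the file headers, the authors deposited for each library a table of genes with uniquely mapped read counts and RPKM, and each RPKM recomputed from the count, gene length and library total with a relative difference of at most 4.17e-07. The submitters' processing notes name build mm10; the aligner, the counter and the use of strand are not given in these sources. Complete are 16 of the 18 tables; sham pool 2 and 1 pool at 0.5 h end early.

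Counts were tested with edgeR 4.0.16 (R 4.3.3): TMM factors (0.765 to 1.18), library totals from the headers, quasi-likelihood F test, Benjamini-Hochberg adjustment at 0.05. All CPM are per total multiplied by the TMM factor of the fit with 17 libraries. The test with both sham pools used 17 libraries and 8026 genes, the complete-table test 16 libraries and 12199 genes, in which sham had pool 1 only. Genes needed the CPM of 10 reads in the median library in 2 or more libraries and 15 reads in all. All groups shared 1 estimate of the spread, with 8 and 7 residual degrees of freedom. Where sham pool 1 had 1 to 3 reads, a ratio of reads with its exact 95% counting interval is given, which covers counting error only. DESeq2 1.42.0 and limma 3.58.1 served as alternatives, with RPKM tested as log2(RPKM + 1).

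Gene lists and members were chosen with earlier results of these data known. Named genes were the 12 largest rises and falls with both sham pools among called genes whose mean was 10 CPM or more and whose groups did not overlap, the 12 largest rises in the complete tables among genes unlisted in sham pool 2 with both 48 h pools at 10 CPM or more and above its bound, up to 4 called members of each list in each direction, and a fixed panel of 56 genes. Some genes that the rule allows are not reported here. Of 215 genes named with values, 40 members of the lists fall outside the rule and were chosen after their values were seen: Abcb11, Aurka, Brca1, C3, C8b, C9, Ccnd2, Ccnd3, Cdc45, Cdc6, Cdt1, Cenpa, Cftr, Cps1, Cyp3a11, Cyp7b1, Dnmt1, Egfr, Fga, G6pc, Hamp, Hsd3b5, Iigp1, Jak2, Kif20a, Ngp, Nr0b2, Psrc1, Pttg1, Rbl1, Scd1, Slc10a1, Slco1a1, Slco1b2, Sult2a8, Tk1, Tuba1b, Tuba4a, Ugt2b38 and Uhrf1. Of 1270 list entries 11 had no match. Reads from overlapping genes cannot be told apart without strand: of the genes named, Ccnd1, Ccna2, Ccne2, Cdc25c, Cdk4, Cebpb, Cyp2f2, E2f8, Gadd45a, H2afx, Icam1, Igf2, Jund, Kif20a, Pklr, Pkm, Prc1, Rbl2, Tuba1b, Tuba4a, Ube2c, Apoa4 and Apoc2 share over 10% of their exons with another annotated gene.

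In simulated counts with 200 changed genes, the test with both sham pools (8026 genes) called 82% and 68% of genes raised and lowered by 1 on the log2 scale and 100% of those changed by 2. The complete-table test (12199 genes) called 22% and 30%, and 92% and 84%. Of the calls made there, 4.37% and 1.72% were false. In the liver libraries the same 2 tests called 2497 and 1820 genes, against the 200 genes changed here. The simulation gave every gene the same spread, and the same mean in all groups apart from the changed genes at 48 h. In the liver libraries the standard deviation of the log2 difference between pools was 0.275 in sham and 0.440 at 24 h. Whether the simulated shares hold for the liver libraries was not tested.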

Additional observations from a re-analysis of the deposited data

Results flagged for a closer look

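The level at 48 h differed from the neighbouring times by a direct test of the difference (edgeR's quasi-likelihood test, adjusted p under 0.05). Against 24 h, 512 genes were higher and 290 lower at 48 h, and against 72 h 28 were higher and 52 lower. These comparisons use the 16 complete tables and no sham library. Groups of 2 pools are too small to look for a single outlying pool by its gap to the others.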

How the results depend on the processing

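Depth limits the comparison mainly through sham pool 2, whose table gives no value under 52 reads, so a rise of a scarce gene rests on sham pool 1 and on the bound. A p that misses the threshold with 2 pools a group does not show that levels are alike. Of 183 called results for single genes, 0 changed direction under any alternative run, 158 kept the call under every alternative other than leaving out a library, and 123 under all of them. DESeq2 ended the calls of Clec4f, Cyp7a1, Ier2, Jak2, Mcm10, Rb1 and Sesn1, and that of E2f7 in the complete tables. Another kind of scaling factor (RLE) ended those of Clec4f, H2-Aa, Ier2, Igf1, Jak2 and Sesn1. With both sham pools, library totals alone gave 1935 higher and 756 lower genes, log2(RPKM + 1) 1964 and 772 and log2(RPKM + 0.1) 1925 and 749. In the complete tables library totals gave 1412 and 493 and RPKM 1597 and 497. Against 24 h, only the 2 groups in the fit gave 330 genes (262 higher, 68 lower), no filter 1329 (637 lower) and library totals 175 lower. Against 72 h, DESeq2 gave 225 (93 and 132), only the 2 groups 13 (3 and 10) and no filter 494 (232 and 262). With 1 library left out the ranges were 1050 to 1451 genes with both sham pools (482 to 737 higher, 559 to 828 lower), 700 to 902 in the complete tables (433 to 514 and 267 to 388), 219 to 1221 against 24 h (158 to 559 and 36 to 662) and 0 to 83 against 72 h (0 to 23 and 0 to 60). The cause was not tested. Fewer pools also carry less evidence. The test with 0 calls, without 48 h pool 2, had 1039 genes at an unadjusted p under 0.05.

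Some genes that were not called changed sign. Alb went to 0.127 with library totals and with both RPKM scales and to 0.0392 with unlisted genes at the bound, Hamp to 0.122, 0.144, 0.144 and 0.0544 under those 4 settings, and Hnf4a to 0.0704 with library totals and 0.0737 and 0.0740 on the RPKM scales. With 1 library left out the ranges were -0.0918 to 0.0190 for Alb, -0.352 to 0.301 for Hamp, -0.249 to 0.0381 for Hnf4a, -0.0728 to 0.282 for Cebpb, -0.664 to 1.199 for Fasn, -0.401 to 2.55 for S100a8 and -0.394 to 1.12 for Saa1.

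The labels number the pools of every group 1 and 2 but do not say that a number joins pools. Deviations of same-numbered sham and 48 h pools correlated at 0.14 over the genes. With the replicate block the counts were 2561 genes with both sham pools, 1455 in the complete tables, 807 against 24 h and 99 against 72 h.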

Other observations

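Several groups of genes held few calls between 48 h and sham. Over all genes with both sham pools, 14.2% were higher and 17% lower. Of 15 heat shock and chaperonin genes 1 was higher and 1 lower (6.67% each, median 0.01). Of 22 oxidative phosphorylation genes 0 were higher and 1 lower (0% and 4.55%, median -0.10). Of 15 genes of ER stress and secretory chaperones 0 were higher and 1, Sel1l of ER-associated degradation, was lower (-0.77 ± 0.17, adjusted p = 0.00595), with a list median of -0.50. The shares were 0% and 6.67%. In 10 of these 15 genes both 48 h pools lay below both sham pools, against 40.4% of all genes, and in 0 above, and the list's sum was 10060.2 and 8305 CPM in sham and 6554 and 7417 CPM at 48 h. Of 17 circadian clock genes 1, Per1, was higher, at 10.1 and 11.97 CPM in sham and 21.4 and 28.7 CPM at 48 h (1.18 ± 0.28, adjusted p = 0.00802), and 2 were lower. These were 5.88% and 11.8% of the list. The hour of sampling is not given in the labels used here. Without 1 of the libraries the threshold was missed by Sel1l (-0.69, adjusted p = 0.0519 without sham pool 1) and Per1 (1.06, adjusted p = 0.0739 without sham pool 1).

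Iron genes held 2 higher and 1 lower of 18 (11.1% and 5.56%, against 14.2% and 17% of all genes). Slc40a1, the iron exporter ferroportin, was lower, at 111 and 124 CPM in sham and 80.6 and 52.1 CPM at 48 h (-0.82 ± 0.17, adjusted p = 0.00431), and Hamp, its hormone hepcidin, was not called (-0.06). Slc39a14, an iron and zinc importer, was called higher with uneven pools, at 156 and 153 CPM in sham and 180.2 and 406 CPM at 48 h (0.92 ± 0.30, adjusted p = 0.031). Not past the threshold with 1 library fewer was Slc39a14 (0.22, adjusted p = 0.544 without 48 h pool 2).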
